A study of Homo sapiens with 14 samples.

Results

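The mitochondrial genome codes for 37 genes, and all of them were listed in the deposited count table of 62703 genes, where their symbols start with "MT-". By type they were 13 mRNAs, 2 rRNAs and 22 tRNAs. Membership was taken from the symbols and used no measured value. Their counts were followed in 14 libraries from 3 human prostate cancer cell lines. LNCaP is an androgen-dependent line, 22Rv1 is androgen-responsive but resistant to enzalutamide, and PC3 is androgen-independent. Each line was treated for 3 days with 1.5 µM SEL120-34A, which blocks CDK8 and CDK19 of the Mediator complex, or with the vehicle DMSO, and all cells had been left to attach to plates before treatment. LNCaP and 22Rv1 had 3 libraries per arm, and PC3 had 1 per arm. The methods describe replicates in general as biological, and neither they nor the labels say whether these libraries came from separate cultures, so p-values measure only the spread between these libraries, which may be technical. Each line stands for itself and not for a stage of the disease.

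Mitochondrial DNA is a small circle held in many copies per cell. Its mRNAs code for core subunits of respiratory complexes I, III, IV and V, which the cell completes with subunits encoded in the nucleus, and its rRNAs form the mitochondrial ribosome that translates those mRNAs. Both strands are transcribed into long precursors, which are cut mainly at the tRNAs that lie between the other genes. Most of the mRNAs then receive a short poly(A) tail, which in several cases supplies the last bases of the stop codon. Libraries were made by BRB-seq, a method that barcodes each sample at reverse transcription, pools the samples and reads the 3′ ends of transcripts.

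The counts should therefore come mainly from the 3′ ends of transcripts, but where reads lay within or past a gene was not examined. Shown here are the last 30 bases of the 5 abundant mRNAs on which the results below turn, of 1 mRNA on the other strand, and of the larger rRNA. They were read 5′ to 3′ on the coding strand of the GRCh38 reference (chrM, GENCODE release 44). Capitals mark the bases of the stop codon that the gene itself holds by its annotated end, and MT-RNR2 has none.
MT-RNR2, chrM:3200-3229, plus strand: tatacccacacccacccaagaacagggttt
MT-ND1, chrM:4233-4262, plus strand: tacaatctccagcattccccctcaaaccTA
MT-CO3, chrM:9961-9990, plus strand: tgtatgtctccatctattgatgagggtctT
MT-CYB, chrM:15858-15887, plus strand: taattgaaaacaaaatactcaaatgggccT
MT-CO1, chrM:7416-7445, plus strand: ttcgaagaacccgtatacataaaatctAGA
MT-ATP6, chrM:9178-9207, plus strand: gtaagcctctacctgcacgacaacacaTAA
MT-ND6, chrM:14149-14178, minus strand: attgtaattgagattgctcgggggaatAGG
In 6 mRNAs (MT-ND1, MT-ND2, MT-CO3, MT-ND3, MT-ND4 and MT-CYB) the gene ends with 1 or 2 bases of the stop codon, as the T or TA above shows. The other 7 hold a whole stop codon by their annotated ends, but the last base of MT-ATP6 is also the first base of MT-CO3. Those 6 mRNAs held between 77.5% and 86.8% of the mitochondrial mRNA counts of a library, and MT-CO3 was the largest part of that.

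Of the 37 genes, 14 passed the filter on low counts: 11 mRNAs, both rRNAs and the aspartate tRNA gene MT-TD. MT-ATP8, with 13 counts over all libraries, and MT-ND6, with 44, did not pass. Of the 21 other tRNA genes, 11 had 0 counts in every library and 10 had between 1 and 17 counts in all. Levels are given as CPM, counts scaled to a common library size. With 3 counts as the limit of detection, a count of 0 allowed a level of up to 12.2 CPM where depth was lowest. Where depth was highest, it allowed up to 3.30 CPM. The 11 tRNAs at 0 thus lay under these limits in single libraries, and how well a 3′ method captures tRNAs was not tested. No other tRNA but MT-TD had more than 4 counts in a library. The genes overlap in places, since MT-ATP8 and MT-ATP6 share 46 bases, MT-ND4L and MT-ND4 share 7, and MT-ATP6 and MT-CO3 share 1. Whether the counting used strand was not given, so reads of MT-ND6 and of transcripts from the other strand there cannot be told apart.

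Total counts ran from 246063 to 909176 per library. VIM, the gene of the mesenchymal filament protein vimentin, had 633 and 1159 counts in the PC3 libraries and at most 34 elsewhere. Leukocyte markers reached at most 2.57 CPM in sum and endothelial markers at most 6.88 CPM. The 5 stromal markers, of which COL1A2 and DCN were at 0 in all libraries, summed to 97.9 and 86.0 CPM in PC3 and to at most 10.8 CPM in 22Rv1. In LNCaP they summed to 17.1 to 24.2 CPM in DMSO and 24.1 to 41.8 CPM with the inhibitor, and their part in the results was not tested. The treated libraries were often shallower than their controls. In 22Rv1 the controls had 491017, 476455 and 777207 counts and the treated libraries 368778, 246063 and 341116, without overlap. In LNCaP the controls had 759548, 412881 and 747345 and the treated libraries 291056, 406886 and 519928, with overlap by 1 control.

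Mitochondrially encoded genes took between 7.60% and 23.3% of all counts in a library. In LNCaP they took 17.3%, 15.7% and 13.9% in the DMSO replicates and 23.3%, 20.8% and 16.5% in the SEL120-34A replicates. The mean was 15.6% ± 1.67 (SD, n = 3) in DMSO and 20.2% ± 3.45 (SD, n = 3) with the inhibitor, and the lowest treated library lay under the highest control. In 22Rv1 the shares were 9.82%, 8.30% and 7.60% in DMSO and 11.5%, 13.1% and 9.52% with SEL120-34A, or 8.57% ± 1.14 against 11.4% ± 1.82 (SD, n = 3 each), again with overlap. PC3 had 8.52% in its DMSO library (Wilson 95% interval 8.46% to 8.57%) and 9.41% in its treated library (9.33% to 9.48%). Intervals and limits cover counting error only. In bulk libraries, more mitochondrial RNA per cell and less other RNA per cell cannot be told apart.

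**Figure D1:**
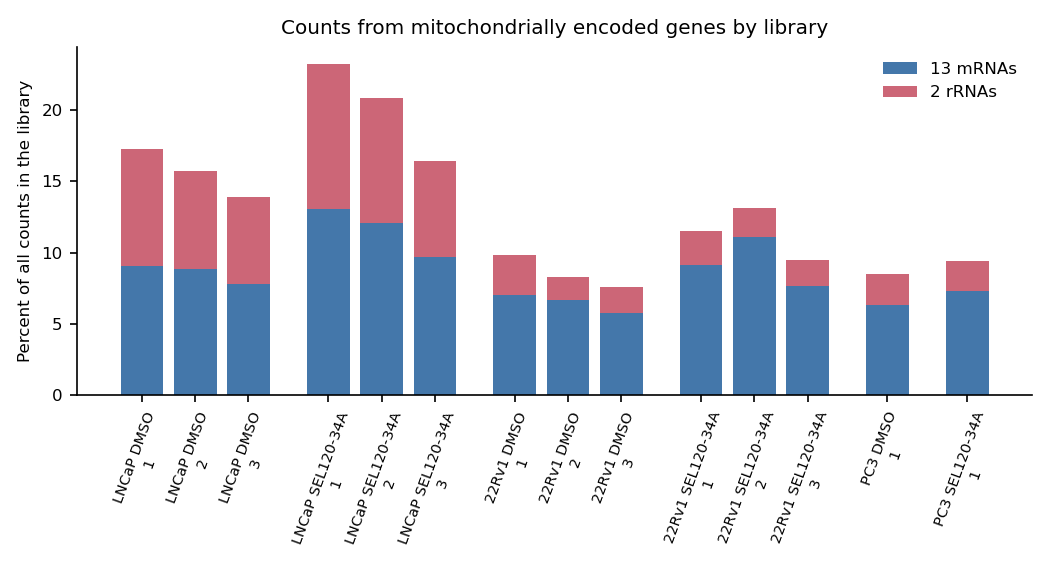
Stacked bars give, for each of the 14 libraries, the percent of all counts from the 13 mitochondrial mRNAs (blue) and the 2 mitochondrial rRNAs (red), with the replicate number under the group. LNCaP bars reach 13.9% to 23.3% and carry the largest rRNA part, and the mRNA part of every treated LNCaP and 22Rv1 library is higher than that of every control of its line.

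Split by kind of RNA, the mRNA share did not overlap between arms in either line. In LNCaP it was 9.06%, 8.84% and 7.82% in DMSO and 13.1%, 12.1% and 9.71% with SEL120-34A, and the ratio of means was 1.36. In 22Rv1 it was 7.01%, 6.68% and 5.78% in DMSO and 9.12%, 11.1% and 7.64% with SEL120-34A, a ratio of 1.43. PC3 went from 6.36% to 7.29%. The rRNA share overlapped between arms in both lines, with means of 7.05% ± 1.06 and 8.56% ± 1.72 in LNCaP and of 2.07% ± 0.639 and 2.10% ± 0.280 in 22Rv1 (SD, n = 3 each), and it was 2.16% and 2.11% in PC3. For every 100 mitochondrial mRNA counts there were 82.0 rRNA counts in LNCaP DMSO and 73.2 with the inhibitor, 31.8 and 23.0 in 22Rv1, and 33.9 and 29.0 in PC3. These ratios overlapped between arms in LNCaP and in 22Rv1. Shares over the whole set were described and not tested, since the set was chosen with results of these data known.

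**Figure D2:**
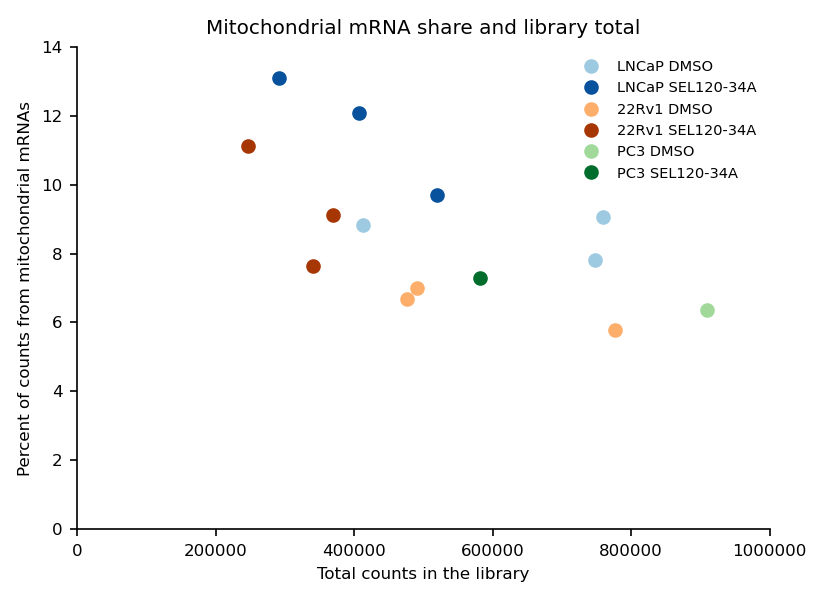
Each point is 1 library, with its total counts on the horizontal axis and the percent of counts from mitochondrial mRNAs on the vertical axis, coloured by group. Treated 22Rv1 libraries lie to the left of all 22Rv1 controls and above them, and in LNCaP the shallowest treated library has the highest share, 13.1%.

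Each gene was then tested with edgeR's quasi-likelihood test with Benjamini-Hochberg adjustment over all 7086 genes that passed the filter, with a threshold of 0.05. In LNCaP, 6 of the 14 tested mitochondrial genes were higher with SEL120-34A and none was lower, while 2.77% of all genes passed in either direction, 1.99% higher and 0.776% lower. All 14 fold changes were above 0, with a median log2 fold change of 0.56 against 0.00 for all genes. In 22Rv1, 10 of the 14 were higher and none was lower, against 5.7% of all genes in either direction and 4.15% higher, with a median of 0.66 against 0.00. In LNCaP 7 of the 14 had treated libraries that all lay above the controls, as did 8.76% of all genes, and in 22Rv1 11 of the 14 did, against 12.4%. Scaling by library totals alone moved the median of all genes by -0.08 in LNCaP and -0.14 in 22Rv1 and split the calls over all genes into 99 higher and 90 lower, and 144 higher and 231 lower, in place of 141 and 55, and 294 and 110. The mitochondrial genes passing on that scale were 5 in LNCaP and 7 in 22Rv1, all higher.

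These calls were not kept with depth in the model. With the log2 library total as a term in the edgeR model, an alternative added after seeing the data, 0 of the 14 genes passed in LNCaP and 0 in 22Rv1, with 3 and 2 at an unadjusted p under 0.05. The median log2 fold changes were then 0.21 and 0.30, and 47 and 63 genes of all 7086 passed in place of 196 and 404. DESeq2, without that term, called 6 and 9 of the 14 genes. Also without it, limma-trend on the deposited log2 CPM values called 0 in LNCaP and 1 in 22Rv1. When every library was thinned to 246063 counts, 6 of 13 tested genes passed in LNCaP and 9 of 13 in 22Rv1. The depths of the arms did not overlap in 22Rv1, so depth and treatment cannot be told apart there, and what depth contributed to the calls in LNCaP was not tested further. The sum of the nuclear RNAs MALAT1 and NEAT1, a sign of RNA make-up, ran from 132 to 179 CPM in LNCaP DMSO and from 179 to 371 with the inhibitor, touching at the edge, and the arms overlapped in 22Rv1. Its part in the result was not tested.

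Individual libraries also set how many genes passed. In LNCaP the count fell to 2 without SEL120-34A replicate 1 and to 3 without DMSO replicate 3 or without SEL120-34A replicate 2, and it rose to 12 without SEL120-34A replicate 3, the treated library with the lowest mitochondrial share. In 22Rv1 it fell to 4 without SEL120-34A replicate 2, the shallowest library of all, and to 6 without DMSO replicate 3. In all of those fits, every gene that passed was higher with the inhibitor.

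**Figure D3:**
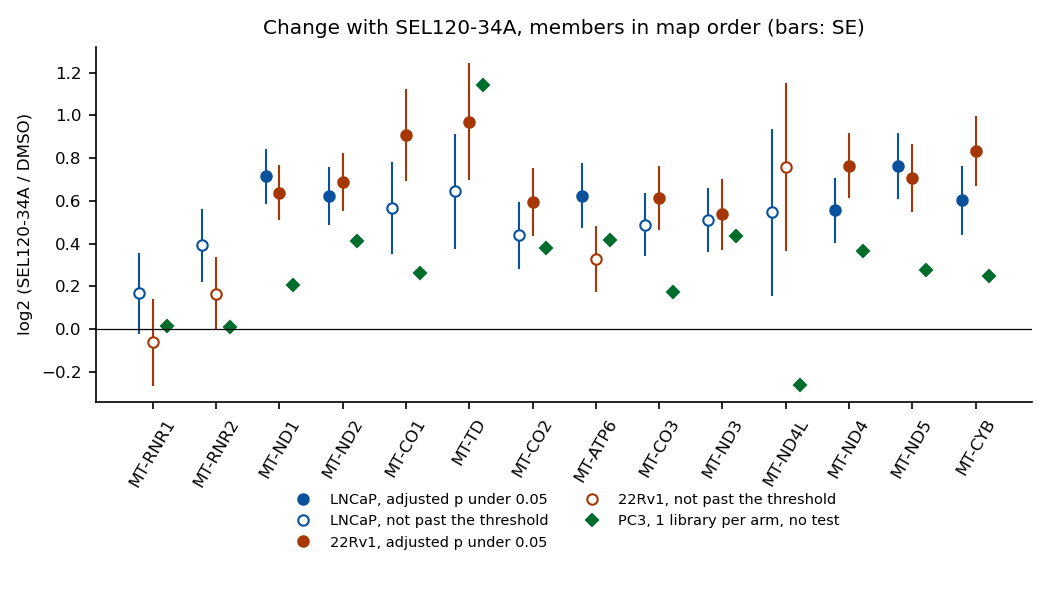
Points give the log2 fold change with SEL120-34A for the 14 tested genes in their order along the mitochondrial genome, with bars for the SE in LNCaP (blue) and 22Rv1 (brown) and diamonds for the ratio of the lone PC3 libraries. Filled circles passed an adjusted p of 0.05. The rRNAs at the left lie nearest to 0, and all mRNAs but MT-ND4L in PC3 lie above 0.

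The rRNAs did not pass in either line. MT-RNR2 codes for the RNA of the large mitochondrial ribosomal subunit. In LNCaP it stood at 82271, 69386 and 59094 CPM in DMSO and at 108816, 91114 and 69787 CPM with SEL120-34A. The ranges overlapped, and the log2 fold change was 0.39 ± 0.17 (SE, edgeR adjusted p = 0.273). In 22Rv1 it stood at 25061, 13591 and 15889 CPM in DMSO and at 23035, 20280 and 17248 CPM with the inhibitor, with a log2 fold change of 0.17 ± 0.17 (edgeR adjusted p = 0.662). MT-RNR1, the RNA of the small subunit, gave 0.17 ± 0.19 in LNCaP and -0.06 ± 0.20 in 22Rv1 on the log2 scale. The direction for MT-RNR1 in LNCaP turned with the library total in the model, at -0.04, and for MT-RNR2 in 22Rv1 likewise, at -0.05. For MT-RNR1 in 22Rv1 single libraries set the direction, at 0.43 without DMSO replicate 1 and -0.32 without DMSO replicate 2. MT-RNR2 counts were 12.8 to 19.9 times those of MT-RNR1 in the 14 libraries.

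Complex I, which takes electrons from NADH, has 7 mitochondrially encoded subunits, of which 6 could be tested. MT-ND1 is part of its membrane arm. In LNCaP it stood at 10051, 9024 and 9150 CPM in DMSO and at 17818, 14494 and 12900 CPM with SEL120-34A, so the arms lay well apart. Its log2 fold change was 0.71 ± 0.13 (edgeR adjusted p = 4.73e-04). In 22Rv1 the values were 6999, 5997 and 6347 CPM against 10134, 10893 and 8788 CPM, again apart, with a log2 fold change of 0.64 ± 0.13 (edgeR adjusted p = 0.00123). Across 18 alternatives per line, the adjusted p for MT-ND1 ran from 8.01e-06 to 0.0705 in LNCaP and from 4.20e-05 to 0.238 in 22Rv1. Both upper ends came from the model with the library total, and in LNCaP limma-trend on the deposited values also missed the threshold.

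The other complex I mRNAs code for further parts of the membrane arm. MT-ND2 rose in LNCaP by 0.62 ± 0.14 and in 22Rv1 by 0.69 ± 0.14 on the log2 scale (edgeR adjusted p = 0.00517 and 0.00103). MT-ND4 stood at 7436, 7022 and 6051 CPM in LNCaP DMSO and at 11778, 9818 and 7837 CPM with the inhibitor, close at the edge, and passed there with a log2 fold change of 0.56 ± 0.15 (edgeR adjusted p = 0.0330), a call lost in 7 of 18 alternatives. In 22Rv1, MT-ND4 stood at 6518, 6850 and 5522 CPM in DMSO and at 9580, 13988 and 8206 CPM with the inhibitor, a log2 fold change of 0.76 ± 0.15. MT-ND5 was far lower, with 125 to 208 counts per library in LNCaP DMSO, and rose in both lines, by 0.76 ± 0.16 and by 0.71 ± 0.16 on the log2 scale (edgeR adjusted p = 0.00226 and 0.00364). MT-ND3 passed in 22Rv1 at 0.54 ± 0.17 (edgeR adjusted p = 0.0459), a call lost in 9 of 18 alternatives, and gave 0.51 ± 0.15 in LNCaP without passing (adjusted p = 0.0548). MT-ND4L had 7 to 15 counts per library in these lines and passed in neither. It overlaps MT-ND4, and over all libraries its counts were 0.215% to 0.481% of those of MT-ND4. How reads were divided between MT-ND4L and MT-ND4 was not tested, so low counts do not show a scarce RNA.

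MT-CYB codes for cytochrome b, the only subunit of complex III made in mitochondria. In LNCaP it stood at 1800, 1893 and 1577 CPM in DMSO and at 2749, 2749 and 2313 CPM with SEL120-34A. The arms did not overlap and the log2 fold change was 0.60 ± 0.16 (edgeR adjusted p = 0.0270), a call lost in 8 of 18 alternatives. In 22Rv1 it stood at 1207, 1321 and 917 CPM in DMSO and at 1836, 2893 and 1372 CPM with the inhibitor. Replicate 2 was the highest of the treated libraries and replicate 3 lay just above the controls, and the log2 fold change was 0.83 ± 0.16 (edgeR adjusted p = 8.11e-04).

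Complex IV, cytochrome c oxidase, has 3 subunits made in mitochondria, and their mRNAs passed in 22Rv1 but not in LNCaP. MT-CO3, the most abundant mRNA of the set, stood in LNCaP at 56241, 58811 and 49749 CPM in DMSO and at 85618, 75539 and 64467 CPM with SEL120-34A. These did not overlap, and the log2 fold change of 0.49 ± 0.15 missed the threshold (edgeR adjusted p = 0.0650), passing in 7 of 18 alternatives. In 22Rv1 MT-CO3 stood at 37327, 29090 and 30917 CPM against 48616, 60204 and 38569 CPM, a log2 fold change of 0.61 ± 0.15 (edgeR adjusted p = 0.00804). MT-CO1, the catalytic subunit, varied between replicates. In 22Rv1 it stood at 7949, 9177 and 3926 CPM in DMSO and at 12330, 17241 and 9529 CPM with the inhibitor, and the log2 fold change was 0.91 ± 0.22 (edgeR adjusted p = 0.00688). That call was lost in 5 of 18 alternatives, among them the fits without DMSO replicate 3, the low control, and the fit without SEL120-34A replicate 2, the high treated library. In LNCaP, MT-CO1 gave 0.57 ± 0.21 (edgeR adjusted p = 0.189), passing in 3 of 18 alternatives. MT-CO2, which binds cytochrome c, gave 0.60 ± 0.16 in 22Rv1 (edgeR adjusted p = 0.0180), a call lost in 6 of 18 alternatives. In LNCaP MT-CO2 gave 0.44 ± 0.16 (edgeR adjusted p = 0.146) and passed in 2 of 18.

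Complex V, the ATP synthase, was represented by MT-ATP6, which lines its proton channel. It was the reverse case, with a call in LNCaP and none in 22Rv1. In LNCaP it stood at 2661, 2843 and 2073 CPM in DMSO and at 4612, 4161 and 2631 CPM with SEL120-34A, where treated replicate 3 fell among the controls. The log2 fold change was 0.62 ± 0.15 (edgeR adjusted p = 0.0139), and the call was lost in 5 of 18 alternatives. In 22Rv1 it stood at 2303, 2093 and 1875 CPM in DMSO and at 2852, 2841 and 2096 CPM with the inhibitor, a log2 fold change of 0.33 ± 0.15 (edgeR adjusted p = 0.230) that turned to -0.07 with the library total in the model. Reads of MT-ATP6 may be shared with a nuclear copy described below. MT-ATP8, which overlaps MT-ATP6, had at most 4 counts in any library, and how reads were divided between them was not tested.

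MT-TD was the only tRNA gene with more than a few counts, 23 to 70 per library in LNCaP and 32 to 48 in 22Rv1. It lies at chrM:7518-7585 between MT-CO1 and MT-CO2, with MT-TS1 of the other strand between it and MT-CO1, and MT-CO2 begins at its next base. Its counts were 0.490% to 1.05% of those of MT-CO1. In 22Rv1 it stood at 74.6, 89.8 and 40.6 CPM in DMSO and at 130, 172 and 91.3 CPM with the inhibitor, with the lowest treated library just above the highest control. The log2 fold change was 0.97 ± 0.27 (edgeR adjusted p = 0.0273), a call lost in 8 of 18 alternatives. In LNCaP it gave 0.64 ± 0.27 (edgeR adjusted p = 0.249).

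The inhibitor effects of LNCaP and 22Rv1 were compared directly. By edgeR, DESeq2 and limma-trend, 0 of the 14 genes differed in effect at an adjusted p under 0.05, and 0 did at an unadjusted p under 0.05, while 0.734% of all genes passed by edgeR. The difference of LNCaP minus 22Rv1 ran from -0.34 ± 0.30 (SE) for MT-CO1 to 0.30 ± 0.22 for MT-ATP6 on the log2 scale. The calls that appeared in 1 line alone therefore do not show that the lines differed, and the width of these errors does not show that they responded alike.

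The composition of the mRNA pool was described by each gene's share of it. MT-CO3 held 60.2% ± 1.86 of mitochondrial mRNA counts in LNCaP DMSO and 58.3% ± 1.98 with SEL120-34A, 53.9% ± 4.56 and 51.9% ± 0.582 in 22Rv1 (SD, n = 3 each), and 51.6% and 49.3% in PC3. In counts per kilobase of gene, where lengths are evened out, MT-CO3 still held 55.7% to 68.4% of a library's mitochondrial mRNA, ahead of MT-ND1 with at least 8.60%. Counts from 3′ ends do not grow with gene length, so that scale and the plain one are both given. Several of these mRNAs, MT-CO3 among them, have nuclear copies, described below. How the counting of reads that match both places bore on these shares was not tested. By share of mRNA counts, 1 of the 13 mRNAs was higher without overlap in treated LNCaP (MT-ND5, 0.380% against 0.323%) and 1 was lower (MT-ND6, which had 0 to 10 counts per library). In 22Rv1 none was higher and 1 was lower, MT-ATP6, with 2.77% against 3.47%. Its treated libraries held 2.42% to 3.08% and its controls 3.41% to 3.51%. By CPM, 8.76% of all genes were higher and 10.7% lower without overlap in treated LNCaP, and 12.4% and 10.5% in treated 22Rv1. CPM over all genes is another measure than shares within a pool of 13 mRNAs, so it cannot say how often 1 of 13 would be seen. A change in composition was not tested, and none is read from these counts.

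**Figure D4:**
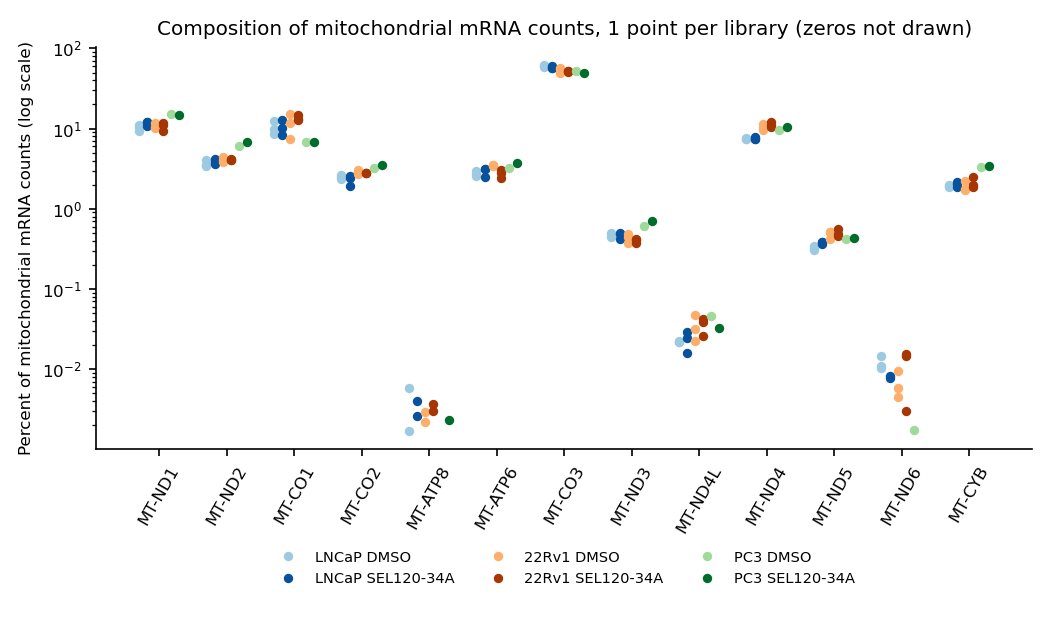
Each point is 1 library and gives the percent of mitochondrial mRNA counts from each of the 13 mRNAs, on a log scale, coloured by group, with libraries at 0 left out. MT-CO3 lies between 48.8% and 61.5% in all libraries, and MT-ATP8 and MT-ND6 lie under 0.02%.

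The rRNA counts set LNCaP apart from the other lines. Between the DMSO libraries, which also serve as controls above, LNCaP had 8 of the 14 genes higher than 22Rv1 by edgeR and none lower, while 49% of all genes passed in this comparison, 24% higher and 25% lower. All 14 fold changes were above 0, with a median log2 fold change of 0.45 against -0.03 for all genes. Without overlap between the lines, 8 of the 14 lay higher and none lower, against 27.5% and 28.9% of all genes. On library totals alone the median of all genes moved by -0.24 and 6 of the 14 passed, all higher. On that scale MT-ND4, MT-ND5, MT-ND4L and MT-TD, which passed on neither, were lower in LNCaP, at -0.10, -0.20, -0.17 and -0.06.

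MT-RNR2 and MT-RNR1 showed the largest differences of the set. MT-RNR2 in the LNCaP controls, at 59094 to 82271 CPM, lay above 22Rv1 controls at 13591 to 25061 CPM, a log2 difference of 1.95 ± 0.18 (edgeR adjusted p = 3.06e-12). MT-RNR1 stood at 5396, 4896 and 4531 CPM in LNCaP and at 1957, 752 and 909 CPM in 22Rv1, a log2 difference of 2.05 ± 0.20 (edgeR adjusted p = 2.58e-11). Both calls held in all 18 alternatives, with the log2 difference of MT-RNR2 between 1.75 and 2.24. The rRNA share of all counts was 3.40 times as high in LNCaP as in 22Rv1, and the mRNA share 1.32 times. PC3, at 2.16% rRNA, lay near 22Rv1. The rRNA values are counts from a 3′ method, and how far they follow the amounts of rRNA in the cells was not tested.

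Among the mRNAs, MT-CO3 at 0.76 ± 0.15, MT-ND3 at 0.73 ± 0.15, MT-CYB at 0.62 ± 0.16, MT-ND1 at 0.55 ± 0.13, MT-ND2 at 0.45 ± 0.14 and MT-CO2 at 0.37 ± 0.16 (log2 difference and SE) were higher in LNCaP. MT-CO2 was the weakest of these, with an edgeR adjusted p of 0.0465 and the call lost in 10 of 18 alternatives. MT-ND4 and MT-ND5 did not pass, at 0.12 ± 0.15 and 0.02 ± 0.15. Within the mRNA pool 2 of 13 were higher in LNCaP without overlap and 5 were lower. By CPM, which is another measure than shares within the pool, 27.5% of all genes were higher and 28.9% lower without overlap. MT-CO3 was higher at 60.2% against 53.9%, and MT-ND4 was lower at 7.48% against 10.5%, its LNCaP libraries between 7.35% and 7.67% and its 22Rv1 libraries between 9.65% and 11.5%.

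PC3 had 1 library per arm and allowed no test. Of 14 genes with at least 10 counts in both libraries, 13 had a ratio of treated to control above 1, as did 56.1% of all genes, and the median log2 ratio was 0.27 against 0.05. On library totals alone 11 were above 1, against 51% of all genes. MT-ND1 went from 9510 to 10982 CPM, MT-ND2 from 3771 to 5013 CPM and MT-CO3 from 32473 to 36640 CPM. MT-RNR2 stood at 20257 and 20424 CPM. Complex I mRNAs held 31.9% and 33.3% of mitochondrial mRNA counts in PC3, above the 21.1% to 27.8% of the other lines, and complex IV mRNAs held 61.5% and 59.7%.

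The nuclear genes that work with these products were counted beside them. Of 79 nuclear-encoded respiratory subunits, 77 were tested. In LNCaP 0 passed by edgeR, where 2.77% of all genes did, with 10 at an unadjusted p under 0.05. The median log2 fold change of the 77 was -0.01, while that of the 14 mitochondrial genes was 0.56. In 22Rv1 6 were higher, where 4.15% of all genes were, and none was lower, with a median of 0.18. These were COX5A (0.61 ± 0.12), COX4I1 (0.49 ± 0.12) and COX7B (0.51 ± 0.16) of complex IV, ATP5MC1 (0.52 ± 0.14) and ATP5MF (0.53 ± 0.15) of complex V, and UQCRH (0.47 ± 0.13) of complex III. None of the 6 passed with the library total in the model. The difference between lines in the inhibitor effect passed for 0 of the 77 by edgeR, where 0.734% of all genes passed, and for 1 by DESeq2. Of the 77, 13 were at an unadjusted p under 0.05. No share of all genes at that p is given, here or for the LNCaP count above, so neither count is read as a result.

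Of 55 genes that maintain, transcribe and process mitochondrial nucleic acids, 40 were tested. With the inhibitor 0 passed by edgeR in either line, where 2.77% of all genes did in LNCaP and 5.7% in 22Rv1. At an unadjusted p under 0.05 there were 2 in LNCaP and 3 in 22Rv1, counts given without the share of all genes and not read as a result. REXO2, a mitochondrial oligoribonuclease, came nearest in LNCaP with 0.56 ± 0.17 (edgeR adjusted p = 0.0622). POLRMT, the mitochondrial RNA polymerase, gave 0.48 ± 0.27 in 22Rv1 (edgeR adjusted p = 0.336). Of 7 nuclear regulators of mitochondrial biogenesis 3 were tested and 0 passed. Between DMSO libraries 14 of the 40 passed, 7 higher and 7 lower in LNCaP, where 49% of all genes passed. Among them were TFAM, which packages mitochondrial DNA, at a log2 difference of 1.07 ± 0.20, REXO2 at 1.22 ± 0.18, and the RNA helicase DHX30 at -1.12 ± 0.18.

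**Figure D5:**
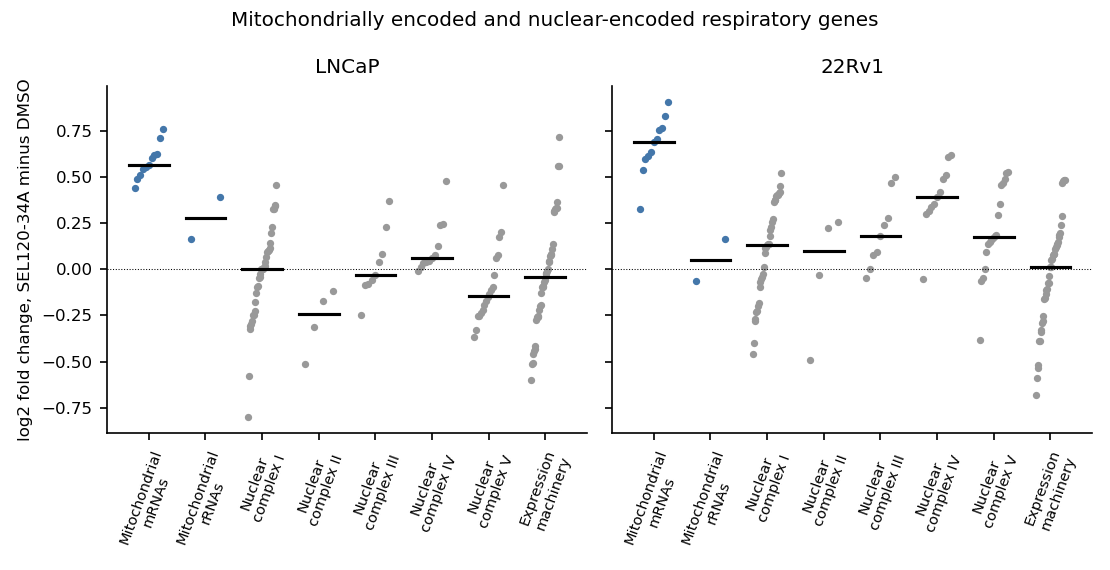
Each point is 1 gene and gives its log2 fold change with SEL120-34A in LNCaP (left) and 22Rv1 (right), with a black line at the median of each group: mitochondrial mRNAs and rRNAs (blue), nuclear-encoded subunits by complex, and the expression machinery (grey). The mitochondrial mRNAs lie between 0.33 and 0.91, and all lie above the medians of the nuclear groups except MT-ATP6 in 22Rv1, at 0.33 against a complex IV median of 0.39.

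The nuclear genome carries old copies of mitochondrial genes, and reads can be split between a copy and its parent. Of 402 such genes named in the table, 391 had 0 counts and 11 had some. MTATP6P1, on chromosome 1 at 633696 to 634376, had 3719 counts over all libraries, or 18.0% to 22.1% of the counts of MT-ATP6. MTCO1P12 held 2.37% to 3.65% of the counts of MT-CO1, and MTCO3P12 0.281% to 0.413% of MT-CO3. MTND2P28 held 0.434% to 1.16% of the counts of MT-ND2. MTND1P23 held 0.109% to 6.55% of those of MT-ND1, with the highest value in 22Rv1 DMSO replicate 2. MTATP6P1 gave a log2 fold change of 0.57 ± 0.15 in LNCaP and 0.21 ± 0.16 in 22Rv1, next to 0.62 and 0.33 for MT-ATP6. How reads matching several places were counted was not given in the sources used here. Values of MT-ATP6, MT-CO1, MT-CO3, MT-ND1 and MT-ND2 are therefore uncertain. The shares on the copies do not bound by how much, since reads matching both places may have been left out.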

How the data were processed

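RNA was measured in 14 BRB-seq libraries, grouped by the cell line and treatment in their labels. The authors, per the methods and the labels, used STARsolo to align and count reads on GRCh38.p13 with GENCODE release 43 and deposited raw counts per gene, and a table of log2 CPM values for 9638 genes. Collapsing of molecular identifiers, strand and multi-mapping were not given in the sources used here. Totals per library and the precision they give stand in the report.

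Counts of the 12 LNCaP and 22Rv1 libraries were fitted in edgeR 4.0.16 (R 4.3.3) with 4 group means, TMM scaling, the low-count filter (7086 genes), the quasi-likelihood test and Benjamini-Hochberg adjustment over all genes, with 8 residual degrees of freedom. CPM levels used TMM factors of all 14 libraries. PC3 was described by ratios. The deposited log2 values entered limma 3.58.1, and DESeq2 1.42.0 was another alternative. The fitting was tested on simulated data. Named were all mRNAs and rRNAs, tRNAs with at least 20 counts, up to 6 genes of each nuclear list by adjusted p and up to 5 nuclear copies by counts. Members and lists were chosen with earlier results of these data known. Alternatives covered scaling, filters, depth, tools, replicate pairing and leaving out each library. Coordinates came from GENCODE release 44.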

Additional observations from a re-analysis of the deposited data

How the results depend on the processing

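Over 56 values of the 14 genes in 4 comparisons, 1066 alternative values were computed. Of these, 900 kept direction and side of the threshold, 83 lost it, 28 gained it, 55 moved without a call, and 0 of the called values changed sign. The cause of these changes was not tested.

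Numbers passing in LNCaP, 22Rv1, the difference of effects and the DMSO comparison were 196, 404, 52 and 3473 of all genes. With at least 10 counts in every library they were 122 in LNCaP, 29 for the difference and 1503 for DMSO, and after thinning 117, 31 and 2054, where fewer genes were tested. With the library total as a term they were 47 in LNCaP and 63 in 22Rv1, by DESeq2 101 and 255, and by limma-trend 41, 201 and, for the difference, 5. Without the filter 22Rv1 had 260. Leaving out 1 library each gave 87 to 239, 158 to 389, 24 to 57 and 3038 to 3325.

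Of the 14 mitochondrial genes, 6, 10, 0 and 8 passed. With the library total 0 passed in LNCaP and 0 in 22Rv1, and by limma-trend 0 in LNCaP (7 at an unadjusted p under 0.05), 1 in 22Rv1 and 5 for DMSO. Leaving out 1 library gave 2 to 12, 4 to 10, 0 to 0 and 6 to 9.

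Same-numbered replicates were paired only by number: their deviations correlated at -0.05 to 0.12 in LNCaP and -0.01 to 0.03 in 22Rv1 over all genes, and at 0.05 to 0.58 and 0.09 to 0.66 over the mitochondrial genes, and not every sample correlated best with its own number. With the replicate block, 11, 10, 0 and 9 mitochondrial genes and 275, 479, 77 and 3507 of all genes passed, the genes gained in LNCaP being MT-CO1, MT-CO2, MT-CO3, MT-ND3 and MT-TD, with 1 machinery gene and 1 respiratory subunit in LNCaP.

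For the machinery list, 0, 0, 0 and 14 passed. The filter of 10 counts gave 1 in LNCaP, 1 in 22Rv1 and 7 for DMSO, library totals 1 in 22Rv1, and thinning 7 for DMSO. For the respiratory subunits, 0, 6, 0 and 30 passed, the last in the DMSO comparison, where 49% of all genes passed. The filter gave 1 in LNCaP. In 22Rv1 library totals gave 3, no filter 2, the library total as a term 0 and limma-trend 3, and the difference had 1 after thinning and 1 by DESeq2. Leaving out 1 library gave 0 to 1, 0 to 0, 0 to 0 and 13 to 15 for machinery and 0 to 0, 1 to 9, 0 to 0 and 24 to 28 for subunits.

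The mitochondrial share depends on what is counted. In LNCaP DMSO, LNCaP SEL120-34A, 22Rv1 DMSO, 22Rv1 SEL120-34A, PC3 DMSO and PC3 SEL120-34A the mRNAs alone took 8.57%, 11.6%, 6.49%, 9.29%, 6.36% and 7.29%, the rRNAs 7.05%, 8.56%, 2.07%, 2.10%, 2.16% and 2.11%, and the mRNAs over counts without the rRNAs 9.23%, 12.7%, 6.63%, 9.49%, 6.50% and 7.45%. Nuclear copies brought PC3 to 8.59% and 9.49%, and thinning brought treated PC3 to 9.32%. Differences in percentage points on rRNAs alone were 1.50 in LNCaP, 0.0237 in 22Rv1 and 4.98 for DMSO, where mRNAs gave 2.08 and mRNAs without rRNAs in the total 2.60. Leaving out 1 library gave shares of 14.8 to 16.5, 18.7 to 22.1, 7.95 to 9.06 and 10.5 to 12.3 percent in the LNCaP and 22Rv1 groups, and differences of 3.02 to 6.42, 1.96 to 3.77 and 6.25 to 7.92. MT-CO3 took, per kilobase, 67.2%, 65.4%, 61.5%, 60.3%, 58.1% and 55.7% of mRNA, and of all mitochondrial counts 33.1%, 33.6%, 40.9%, 42.2%, 38.5% and 38.2%. Leaving out 1 library gave 59.5 to 61.2, 57.2 to 59.1, 52.0 to 56.5 and 51.6 to 52.2 percent for MT-CO3.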

Other observations

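MTND1P23, a nuclear copy of part of MT-ND1 on chromosome 1 at 629062 to 629433, had 210 counts in 22Rv1 DMSO replicate 2 and between 4 and 61 counts in each of the other libraries. It gave a log2 fold change of -2.95 with SEL120-34A in 22Rv1 (edgeR adjusted p = 0.0199), and without that library -0.53 (edgeR adjusted p = 0.767). Over its alternatives, MTND1P23 had an adjusted p from 1.59e-17 without the low-count filter to 0.767, and DESeq2 gave none.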
